A study of Mus musculus with 6 samples.

Results

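Positive acute-phase proteins are plasma proteins whose production rises during inflammation. The genes described here are Saa1, Saa2, Saa3, Lcn2, Orm1, Orm2, Hp, Hpx, Crp, and Apcs, chosen as a group of known acute-phase genes and found by exact symbol among the 26167 genes of the expression tables, which list all 10. They were measured by RNA sequencing, 1 library per tumor, in 3 control tumors, which the labels number 1, 3, and 4, and in 3 Sora-treated tumors, numbered 2, 3, and 4. All tumors grew from Hepa1-6 cells, a mouse hepatoma line (spelled Hep1-6 in the labels), injected under the skin of female C57BL/6J mice aged 6 to 8 weeks. Sora (sorafenib) blocks several kinases. It was injected ip at 10 mg/kg on day 9 after the tumor cells and again on days 11, 13, and 15. What the control mice were injected with and the day on which these tumors were taken are not given in the sources used here. The labels do not say that the tumors of a group came from separate cultures of cells or separate animals, so p-values measure the spread between these samples only.

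In the liver, IL-6 and related cytokines signal through the shared receptor chain gp130 and STAT3, while IL-1 and TNF signal through NF-kappaB and C/EBP factors, and together they turn on acute-phase genes in hepatocytes. The proteins act in innate defense and in the clearance of damage: serum amyloid A binds lipids, lipocalin 2 traps bacterial siderophores, the orosomucoids carry small molecules, haptoglobin and hemopexin bind free hemoglobin and heme, and the pentraxins mark microbes and dead cells. In the mouse, unlike in humans, C-reactive protein is a minor acute-phase protein, and serum amyloid P component, the product of Apcs, is a major one.

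Levels between genes are given as FPKM, which are counts divided by gene length and library total. Differences were tested on counts with edgeR's quasi-likelihood test, fitted across the 16513 genes that reached 10 counts in 3 or more tumors, and a gene was called with a Benjamini-Hochberg adjusted p under 0.05. Totals ran from 31073830 to 36205814 counts per tumor. The count table used here holds 5 tumors, and the counts of Sora-treated tumor 4 were recovered from its FPKM. The biological coefficient of variation was 0.132, and the median log2 fold change of all genes tested was -0.00037. The 14 hepatocyte and hepatoma markers differed widely in level. Alb and Apoe, albumin and a lipoprotein component, were the most abundant of them, at 974 to 1680 FPKM and 902 to 1347 FPKM. Afp, the fetal liver protein, named after its values were seen, was at 323 to 483 FPKM. Ttr did not exceed 8.76 FPKM, and Dlk1, also named after its values were seen, did not exceed 0.251 FPKM. These are bulk tumors, in which fewer cells of a type and less RNA per cell cannot be told apart.

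The 10 genes fell into a set with clear expression and a set with almost none. Saa3, Hp, Hpx, Orm1, and Lcn2 passed the filter on counts, and none of them fell below 2.46 FPKM in any tumor. Saa1, Saa2, Orm2, Crp, and Apcs did not pass and together had 78 reads over the 6 tumors, with no value above 0.531 FPKM. By mean FPKM over the 6 tumors, the order was Saa3 (54.6), Hp (40.2), Hpx (23.1), Orm1 (4.32), Lcn2 (4.30), and Saa1 (0.253), with Saa2, Crp, Orm2, and Apcs lower still. The ranges of Saa3 and Hp over the 6 tumors overlapped, as did those of Hp and Hpx, of Orm1 and Lcn2, and of neighbors among the 5 low genes. These ranges pool both groups. In the Sora-treated tumors alone, Hp was at 42.7 to 56.4 FPKM and Hpx at 18.9 to 22.4 FPKM. Hpx was above Hp in control tumor 3. The order of Orm1 and Lcn2 differed between the groups, with means of 3.62 and 2.59 FPKM in control tumors and of 5.02 and 6.01 FPKM in Sora-treated tumors, where Lcn2 was the higher in each tumor. Saa3 lay at percentile 95.4 of all genes by mean FPKM, Hp at 93.7, and Hpx at 88.6. The liver forms Saa1 and Saa2, Orm2, and the pentraxins thus contributed next to nothing to the summed level of the 10 genes.

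**Figure D1:**
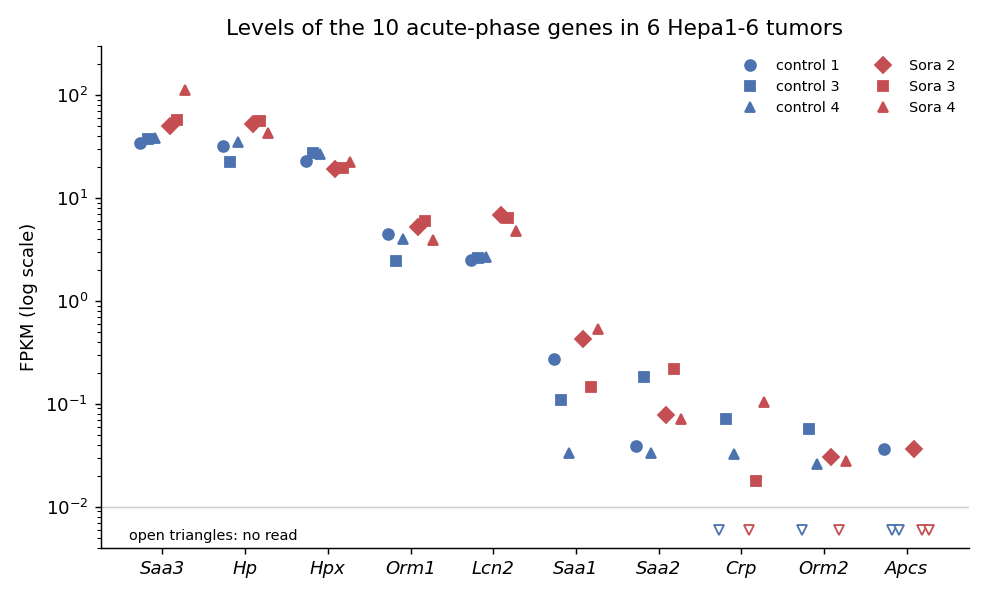
FPKM of the 10 genes on a log scale (y axis) in each control tumor (blue) and Sora-treated tumor (red), ordered by mean level; symbols give the tumor number and open triangles mark tumors with no read. Saa3, Hp, Hpx, Orm1, and Lcn2 stand above 2.46 FPKM in every tumor, and the other genes stay at or below 0.531 FPKM.

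Lcn2 and Hp, 2 of the 5 tested genes, were higher in Sora-treated tumors, and none was lower. Among all genes tested, 1.94% were called higher and 1.34% were called lower. The groups did not overlap, with every Sora-treated tumor higher, for Saa3, Lcn2, and Hp, 3 of the 5 tested genes, against 10.6% of all genes tested. No tested member had every Sora-treated tumor lower by CPM scaled with edgeR's TMM method, against 11.6% of all genes. The median log2 fold change of the 5 tested genes was 0.76. None of the calls held in every fit with 1 tumor left out, as given below for each gene. Saa3, Lcn2, and Hp each had an unadjusted p under 0.05 in all of these edgeR fits, which share most of their tumors. At that threshold 998 to 1600 of all genes were higher, of 16295 to 16319 tested.

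Serum amyloid A is a family of small apolipoproteins that ride on high-density lipoprotein in the acute phase. Saa1 and Saa2 are the liver forms, whereas Saa3 is the form made by macrophages, fat, and other tissues outside the liver. All 3 genes lie on chromosome 7 of GRCm38.p6, with Saa3 at 46711998 to 46719615, Saa1 at 46740497 to 46743181, and Saa2 at 46751833 to 46754313. Saa3 had the highest mean FPKM of the 10 genes over the 6 tumors, although Hp was above it in Sora-treated tumor 2. The level of Saa3 was 34.0, 37.4, and 37.9 FPKM in control tumors 1, 3, and 4, and 50.1, 57.5, and 111 FPKM in Sora-treated tumors 2, 3, and 4. Every Sora-treated tumor stood above every control tumor, the control tumors lay close together, and Sora-treated tumor 4 stood far above the other two treated tumors. The means were 36.4 ± 2.14 and 72.8 ± 33.1 FPKM (SD, n = 3). The log2 fold change was 1.02 with a standard error of 0.25, which did not pass the threshold in edgeR (adjusted p = 0.055). Without Sora-treated tumor 4 the log2 fold change of Saa3 was 0.55 (edgeR adjusted p = 0.096). Saa3 was called without Sora-treated tumor 2 (adjusted p = 0.041, edgeR) and without Sora-treated tumor 3 (adjusted p = 0.030, edgeR), so the size and the call of its difference both depended on single treated tumors.

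Saa1 and Saa2 were almost silent beside Saa3. Saa1 had 7, 3, and 1 reads in control tumors 1, 3, and 4, and 11, 4, and 15 reads in Sora-treated tumors 2, 3, and 4. Saa2 had 1, 5, and 1 reads in the control tumors and 2, 6, and 2 reads in the Sora-treated tumors. The groups overlapped for both genes, and no fold change is given at these counts. For comparison, 3 reads amount to at most 0.117 FPKM of Saa1 in any tumor, a limit that covers counting error only. Short reads of this pair can also be uncertain between its members. Their transcripts in GENCODE M21 were identical at 93.9% of aligned positions, and 14.8% of the 50-base windows of the Saa1 transcript and 13.3% of those of the Saa2 transcript occur in another gene. At windows of 100 bases, 0 were shared in either transcript. RefSeq lists each of the 2 names as a synonym of the other, so older tables may hold them exchanged. The Saa3 transcript was 62.2% identical to that of Saa1, and 1.78% of its windows occur elsewhere, so its reads can be told from theirs almost throughout.

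The promoters of the expressed Saa3 and of the nearly silent Saa1 are shown because the 2 genes belong to 1 family and differ widely in level. Each sequence runs from 250 bases before to 50 bases after a RefSeq start on GRCm38.p6, 5′ to 3′ on the strand of the gene. For Saa3 and Saa1 this start lies inside the gene range given above, downstream of its 5′ end, and is 1 of the starts that the annotation holds. The capitals mark matches to the letters TTGCNNAA on either strand, the core that C/EBP factors bind. Both are on the minus strand, Saa3 at chr7:46715627-46715926 and Saa1 at chr7:46742931-46743230.
Saa3: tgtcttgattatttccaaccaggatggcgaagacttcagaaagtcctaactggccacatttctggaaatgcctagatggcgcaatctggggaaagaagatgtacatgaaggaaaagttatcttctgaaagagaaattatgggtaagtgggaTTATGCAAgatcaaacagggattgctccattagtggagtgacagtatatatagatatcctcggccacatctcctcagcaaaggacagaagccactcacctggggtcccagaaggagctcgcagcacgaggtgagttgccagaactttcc
Saa1: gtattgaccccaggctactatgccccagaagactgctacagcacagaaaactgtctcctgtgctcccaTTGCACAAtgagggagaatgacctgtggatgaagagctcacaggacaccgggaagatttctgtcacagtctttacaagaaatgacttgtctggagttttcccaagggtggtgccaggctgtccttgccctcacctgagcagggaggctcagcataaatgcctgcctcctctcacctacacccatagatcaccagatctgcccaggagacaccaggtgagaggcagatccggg
The match began 99 bases before the start in Saa3 and 182 bases before the start in Saa1. The 2 promoters were identical at 50.9% of aligned positions, whereas those of Saa1 and Saa2 were identical at 95.3%, and the match of Saa2 began 183 bases before its start. Having the match therefore did not separate the expressed gene from the nearly silent pair.

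Lcn2 encodes lipocalin 2, a siderophore-binding protein stored in neutrophil granules and made by epithelial cells, hepatocytes, and macrophages on IL-1 or IL-6 signals. It lies on chromosome 2 of GRCm38.p6 at 32384637 to 32387739. Lcn2 was at 2.51, 2.60, and 2.66 FPKM in control tumors 1, 3, and 4, and at 6.90, 6.35, and 4.78 FPKM in Sora-treated tumors 2, 3, and 4. The control tumors were nearly equal, every Sora-treated tumor was above them, and Sora-treated tumor 4, the highest for Saa3, was the lowest treated tumor here. The means were 2.59 ± 0.0723 and 6.01 ± 1.10 FPKM (SD, n = 3), and the fold change fitted by edgeR was 2.33. The log2 fold change was 1.22 with a standard error of 0.22 (edgeR adjusted p = 0.019), the largest of the 5 tested genes with all 6 tumors. Without Sora-treated tumor 2 it was 1.12, below the 1.23 of Saa3. In the fits that left out 1 tumor, the log2 fold change of Lcn2 stayed between 1.12 and 1.35. The call was lost without control tumor 1 (edgeR adjusted p = 0.054), control tumor 4 (0.056), Sora-treated tumor 2 (0.087), or Sora-treated tumor 4 (0.066). The Lcn2 promoter, on the minus strand at chr2:32387690-32387989, is shown as that of a gene called higher and holds the same C/EBP letters, marked in capitals, 216 bases before the start.
Lcn2: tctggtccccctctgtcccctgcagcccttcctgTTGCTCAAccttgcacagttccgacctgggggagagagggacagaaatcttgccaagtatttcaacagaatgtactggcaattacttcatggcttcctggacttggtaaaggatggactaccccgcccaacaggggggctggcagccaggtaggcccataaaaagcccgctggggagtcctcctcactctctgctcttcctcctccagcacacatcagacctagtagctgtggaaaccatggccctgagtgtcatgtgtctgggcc

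Markers of neutrophils, a cell that stores lipocalin 2, were measured beside Lcn2. Of 18 such genes, 13 were tested, 1 was called higher and none lower, and their median log2 fold change was 0.50, with 8 values above 0 and 5 below. Mmp9 and S100a9 were the most abundant. Mmp9, a gelatinase, was at 64.8 ± 7.32 and 54.8 ± 8.74 FPKM (SD, n = 3) in control and Sora-treated tumors, and its log2 fold change of -0.23 did not pass in edgeR (adjusted p = 0.41). S100a9, a calcium-binding protein of neutrophils and monocytes, was at 22.1, 27.5, and 19.4 FPKM in the control tumors and 80.3, 31.5, and 46.7 FPKM in the Sora-treated tumors. Its log2 fold change was 1.21 with a standard error of 0.28 (edgeR adjusted p = 0.042), and in the fits with 1 tumor left out it was called in 1 of 6, the one lacking Sora-treated tumor 3. Without Sora-treated tumor 2 its log2 fold change was 0.79 (edgeR adjusted p = 0.10). The summed level of the list was 132 to 224 FPKM in control and 189 to 273 FPKM in Sora-treated tumors, which overlap. Some other genes of the list are named here after their values were seen, and none of those tested passed in edgeR. S100a8, the partner of S100a9, had a log2 fold change of 1.09 (edgeR adjusted p = 0.11), with groups that overlapped. Csf3r and Mmp8, with 0.50 (edgeR adjusted p = 0.072) and 0.76 (edgeR adjusted p = 0.25), had every Sora-treated tumor above every control tumor, and Chil3 had -0.81 (edgeR adjusted p = 0.43). Of the granule genes, Mpo did not exceed 0.0471 FPKM and Elane did not exceed 0.358 FPKM, each with no read in 3 tumors, and Fcnb had no read in 5 tumors. Ltf lay between 0.175 and 0.623 FPKM, whereas Camp reached 1.80 FPKM and Ngp 3.05 FPKM, with no read in 2 tumors and 1 tumor. Ly6g, the surface marker, lay between 0.0964 and 0.344 FPKM. Lcn2 and S100a9 were both highest in Sora-treated tumor 2. Sora-treated tumor 3 was above Sora-treated tumor 4 for Lcn2 and below it for S100a9. The control tumors ranged from 2.51 to 2.66 FPKM for Lcn2 and from 19.4 to 27.5 FPKM for S100a9. The part of these cells in the Lcn2 difference was not tested.

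The orosomucoids, or alpha-1-acid glycoproteins, are lipocalin-like plasma carriers of lipophilic molecules and drugs. Orm1 and Orm2 lie on chromosome 4 of GRCm38.p6, at 63344556 to 63348163 and 63362449 to 63365877. Orm1 was at 4.43, 2.46, and 3.97 FPKM in control tumors 1, 3, and 4, and at 5.25, 5.95, and 3.88 FPKM in Sora-treated tumors 2, 3, and 4. The groups overlapped, since Sora-treated tumor 4 was below control tumors 1 and 4. The means were 3.62 ± 1.03 and 5.02 ± 1.05 FPKM (SD, n = 3), and the log2 fold change of 0.48 (standard error 0.26) did not pass in edgeR (adjusted p = 0.39). Without control tumor 3, the lowest of the 6, it was 0.29. Orm2 had 0, 2, and 1 reads in the control tumors and 1, 0, and 1 reads in the Sora-treated tumors, at or below 3 reads in each. A count of 3 reads of Orm2 amounts to 0.0787 to 0.0917 FPKM, and no tumor was above that count, so the groups could not be compared at this depth. The pair is uncertain as well, since the Orm1 and Orm2 transcripts were 91.0% identical and 20.4% of the 50-base windows of Orm1 and 22.7% of those of Orm2 occur in another gene. At windows of 100 bases 6.95% were shared.

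Haptoglobin and hemopexin clear what red blood cells release: haptoglobin binds free hemoglobin, and hemopexin binds free heme. Hp rose in the Sora-treated tumors, and Hpx did not pass the test. Hp, on chromosome 8 of GRCm38.p6 at 109575128 to 109579172, was at 32.3, 22.4, and 35.3 FPKM in control tumors 1, 3, and 4, and at 51.9, 56.4, and 42.7 FPKM in Sora-treated tumors 2, 3, and 4. The groups did not overlap, and as for Lcn2 and Orm1, Sora-treated tumor 4 was the lowest of the treated tumors. With TMM scaling the means were 40.1 ± 8.37 and 67.9 ± 8.10 CPM (SD, n = 3), a 1.69-fold rise. Its log2 fold change was 0.76 with a standard error of 0.14 (edgeR adjusted p = 0.021). It stayed between 0.60 and 0.89 when 1 tumor was left out. The call was lost without control tumor 1 (edgeR adjusted p = 0.054), Sora-treated tumor 2 (0.069), or Sora-treated tumor 4 (0.070).

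Hpx, on chromosome 7 of GRCm38.p6 at 105591611 to 105600116, was at 22.9, 27.6, and 26.8 FPKM in control tumors 1, 3, and 4, and at 18.9, 19.6, and 22.4 FPKM in Sora-treated tumors 2, 3, and 4. The FPKM of the groups did not overlap, but control tumor 1 and Sora-treated tumor 4 lay close together, and with TMM scaling they changed places at 33.1 and 34.2 CPM. The means were 25.8 ± 2.48 and 20.3 ± 1.85 FPKM (SD, n = 3), and the log2 fold change of -0.33 (standard error 0.11) did not pass in edgeR (adjusted p = 0.14). It was not called in any of the 17 alternative fits, and its log2 fold change was below 0 in all of them. Its promoter is shown as that of the only tested member with a value lower in Sora-treated tumors. It runs on the minus strand at chr7:105600067-105600366, and it too holds the C/EBP letters, 200 bases before the start.
Hpx: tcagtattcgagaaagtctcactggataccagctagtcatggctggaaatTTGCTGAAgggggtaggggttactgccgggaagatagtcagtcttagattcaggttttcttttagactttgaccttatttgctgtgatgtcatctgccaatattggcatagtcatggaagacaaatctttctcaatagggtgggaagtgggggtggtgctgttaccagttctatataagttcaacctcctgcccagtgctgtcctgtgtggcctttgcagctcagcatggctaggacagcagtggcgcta

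Within each tumor, the balance of the 2 scavengers can be read without scaling between libraries. The ratio of Hp to Hpx in FPKM was 1.41 in control tumor 1, 0.813 in tumor 3, and 1.32 in tumor 4, whereas it reached 2.74, 2.88, and 1.90 in the Sora-treated tumors 2, 3, and 4. Every treated tumor was above every control tumor. This ratio was formed after the values were seen and was not tested. Markers of red blood cells were measured beside them. All 5 tested genes of 6 had a negative log2 fold change, with a median of -1.17, and 1 passed. Hba-a1, an alpha-globin gene, fell by 1.17 on the log2 scale (standard error 0.24, edgeR adjusted p = 0.031), a call that held only without control tumor 3 among the 6 fits with a tumor left out. Hbb-bs, a beta-globin gene, had a log2 fold change of -1.12 (edgeR adjusted p = 0.058). Summed red blood cell markers were at 74.0 to 209 FPKM in control tumors and 53.6 to 70.8 FPKM in Sora-treated tumors. What part blood content has in the levels of Hp and Hpx was not tested.

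Haptoglobin is also made by adipocytes, which lie next to a tumor grown under the skin. Of 8 adipocyte markers 7 were tested, none was called, and all 7 had a positive log2 fold change with a median of 0.67. Fabp4 and Cfd, the most abundant of them, had log2 fold changes of 0.20 (edgeR adjusted p = 0.60) and 0.75 (edgeR adjusted p = 0.063). The summed level was 70.6, 68.6, and 102 FPKM in control tumors 1, 3, and 4, and 83.1, 130.3, and 102 FPKM in Sora-treated tumors 2, 3, and 4. Sora-treated tumor 3 was the highest and control tumor 3 the lowest of the 6 both for these markers and for Hp. The tumors between them were ordered differently. Control tumor 4 was above Sora-treated tumor 2 for the markers and below it for Hp, at 35.3 against 51.9 FPKM. The part of adipocytes in the Hp difference was not tested.

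The pentraxins are ring-shaped proteins that bind phosphocholine and other ligands on microbes and dying cells. Crp and Apcs lie on chromosome 1 of GRCm38.p6, at 172698056 to 172699966 and 172893961 to 172895054. Crp had 0, 4, and 2 reads in the control tumors and 0, 1, and 6 reads in the Sora-treated tumors. Apcs had 1 read in control tumor 1, 1 read in Sora-treated tumor 2, and none in the other 4 tumors. Neither gene can be compared between the groups at these counts. A count of 3 reads of Apcs amounts to 0.0943 to 0.110 FPKM, and no tumor was above that number of reads.

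**Figure D2:**
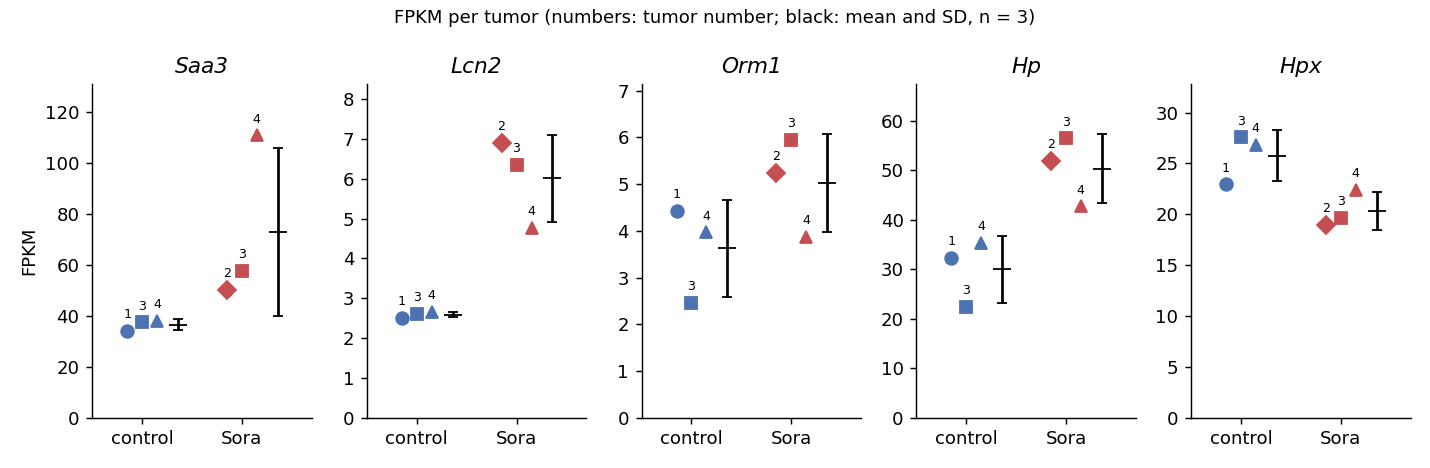
FPKM (y axis, linear, from 0) of the 5 tested genes in control (blue) and Sora-treated (red) tumors, with the tumor number at each point and the mean and SD of each group in black. Treated tumors are all above control tumors for Saa3, Lcn2, and Hp; tumor 4 is the highest treated tumor for Saa3 and the lowest for Lcn2, Orm1, and Hp.

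The 10 genes did not move as 1 block from tumor to tumor. Their summed level was 96.5, 92.9, and 107 FPKM in control tumors 1, 3, and 4, and 134, 146, and 185 FPKM in Sora-treated tumors 2, 3, and 4. In Sora-treated tumor 4, Saa3 made up 59.8% of that sum, against 35.2% to 40.3% in the other 5 tumors. The share of Hp was 38.8% and 38.6% in Sora-treated tumors 2 and 3 and 23.1% in Sora-treated tumor 4. Hpx took 23.8% to 29.7% of the sum in control tumors and 12.1% to 14.2% in Sora-treated tumors. The ratio of Saa3 to Lcn2 in FPKM was 14.1 ± 0.469 (SD, n = 3) in the control tumors, and 7.25, 9.06, and 23.2 in Sora-treated tumors 2, 3, and 4 respectively. The control tumors held this ratio nearly fixed, while the treated tumors lay on both sides of it.

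**Figure D3:**
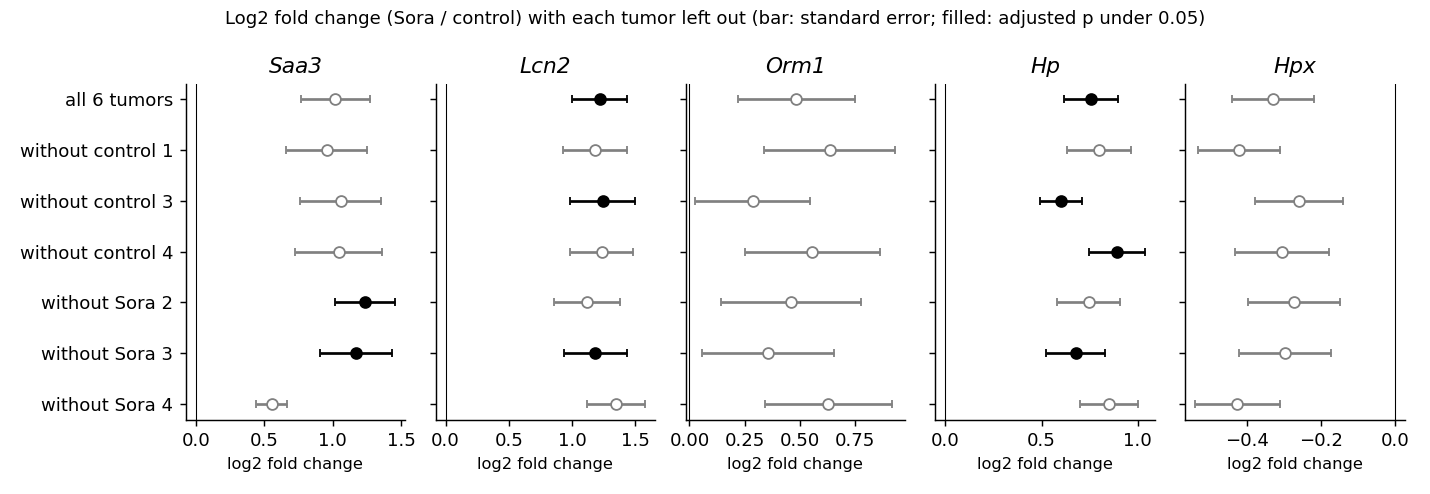
Log2 fold change, Sora-treated over control (x axis), of the 5 tested genes with all 6 tumors and with each tumor left out in turn; bars are standard errors and filled points have an edgeR adjusted p under 0.05. The direction is the same in every fit, whereas the calls of Lcn2, Hp, and Saa3 come and go, and Saa3 falls from 1.02 to 0.55 without Sora-treated tumor 4.

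Of the 10 genes, 8 were matched to a promoter in the RefSeq table, and Orm1 and Hp were not. The C/EBP letters TTGCNNAA were found on either strand in 6 of the 8 (Saa1, Saa2, Saa3, Lcn2, Orm2, and Hpx), and in 10.8% of all 32851 promoters of the same length. The STAT letters TTCNNNGAA were found in Apcs alone, and in 8.3% of all promoters. A second motif of IL-6 response elements, CTGGGAA, was found in Apcs alone, with 2 matches, and in 11.1% of all promoters. The kappaB motif was found in none of the 8 and in 4.51% of all promoters. TATAAA was found in Orm2 and Crp and in 13.6% of all promoters. No match overlapped another motif in these promoters. The matches are descriptions of letters in a short window. The 6 genes with the C/EBP letters include the well-expressed Saa3, Lcn2, and Hpx and the nearly silent Saa1, Saa2, and Orm2.

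The cytokines that induce these genes were measured next. Of 15 IL-6 family ligands and receptors, 14 were tested, 1 was called higher and 1 lower, with a median log2 fold change of 0.21. Osm, oncostatin M, a gp130 cytokine of myeloid cells, was at 2.06, 2.16, and 1.54 FPKM in control tumors 1, 3, and 4, and at 5.36, 2.68, and 4.25 FPKM in Sora-treated tumors 2, 3, and 4. All treated tumors were above all control tumors, and the log2 fold change of Osm was 1.10 (standard error 0.26, edgeR adjusted p = 0.045). Lifr, the receptor chain for LIF, fell by 0.38 on the log2 scale (standard error 0.078, edgeR adjusted p = 0.029). Il6st, the gp130 chain, and Lifr were the most abundant of the list, and Il6st had a log2 fold change of -0.13 (edgeR adjusted p = 0.48). Il6 itself, named here after its values were seen, was low, with 0.385 ± 0.132 FPKM in control and 0.798 ± 0.199 FPKM in Sora-treated tumors (SD, n = 3), and its log2 fold change of 1.04 had a standard error of 0.42 (edgeR adjusted p = 0.22).

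Of 15 ligands and receptors of the IL-1, TNF, and IL-22 branches, 13 were in the tables, 12 were tested, 1 was called higher and none lower, and the median log2 fold change was 0.16. Il17a and Il22 were not analysed here. Il1rn, the IL-1 receptor antagonist, which is itself induced in the acute phase, rose from 23.6 ± 0.774 to 33.5 ± 5.71 FPKM (SD, n = 3), a log2 fold change of 0.52 (standard error 0.12, edgeR adjusted p = 0.041). Tnfrsf1a, the TNF receptor, was the most abundant, with a log2 fold change of 0.069 (edgeR adjusted p = 0.70). Il1b, named after its values were seen, was at 17.6, 12.7, and 15.5 FPKM in the control tumors and at 34.4, 16.3, and 26.2 FPKM in the Sora-treated tumors. Sora-treated tumor 3 lay within the range of the control tumors, and the log2 fold change of 0.76 did not pass in edgeR (adjusted p = 0.083).

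All 29 genes of the signal transducers, feedback regulators, and transcription factors were tested, of which 2 were called higher and none lower, with a median log2 fold change of 0.052. Hnf4a, a master regulator of hepatocyte genes, was at 15.8, 18.6, and 16.8 FPKM in control tumors 1, 3, and 4, and at 32.0, 24.0, and 32.3 FPKM in Sora-treated tumors 2, 3, and 4, a log2 fold change of 0.80 (standard error 0.12, edgeR adjusted p = 0.013). Nfkbiz, the atypical NF-kappaB protein that Lcn2 transcription is known to need in macrophages, rose from 11.3 ± 0.507 to 15.6 ± 1.02 FPKM (SD, n = 3), a log2 fold change of 0.48 (standard error 0.081, edgeR adjusted p = 0.016). Cebpb, a C/EBP factor, and Nfkbia, an NF-kappaB inhibitor, were the most abundant of these, with log2 fold changes of 0.26 (edgeR adjusted p = 0.16) and 0.077 (edgeR adjusted p = 0.68). Stat3 and its feedback gene Socs3, named after their values were seen, had log2 fold changes of -0.045 (edgeR adjusted p = 0.80) and 0.45 (edgeR adjusted p = 0.080).

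**Figure D4:**
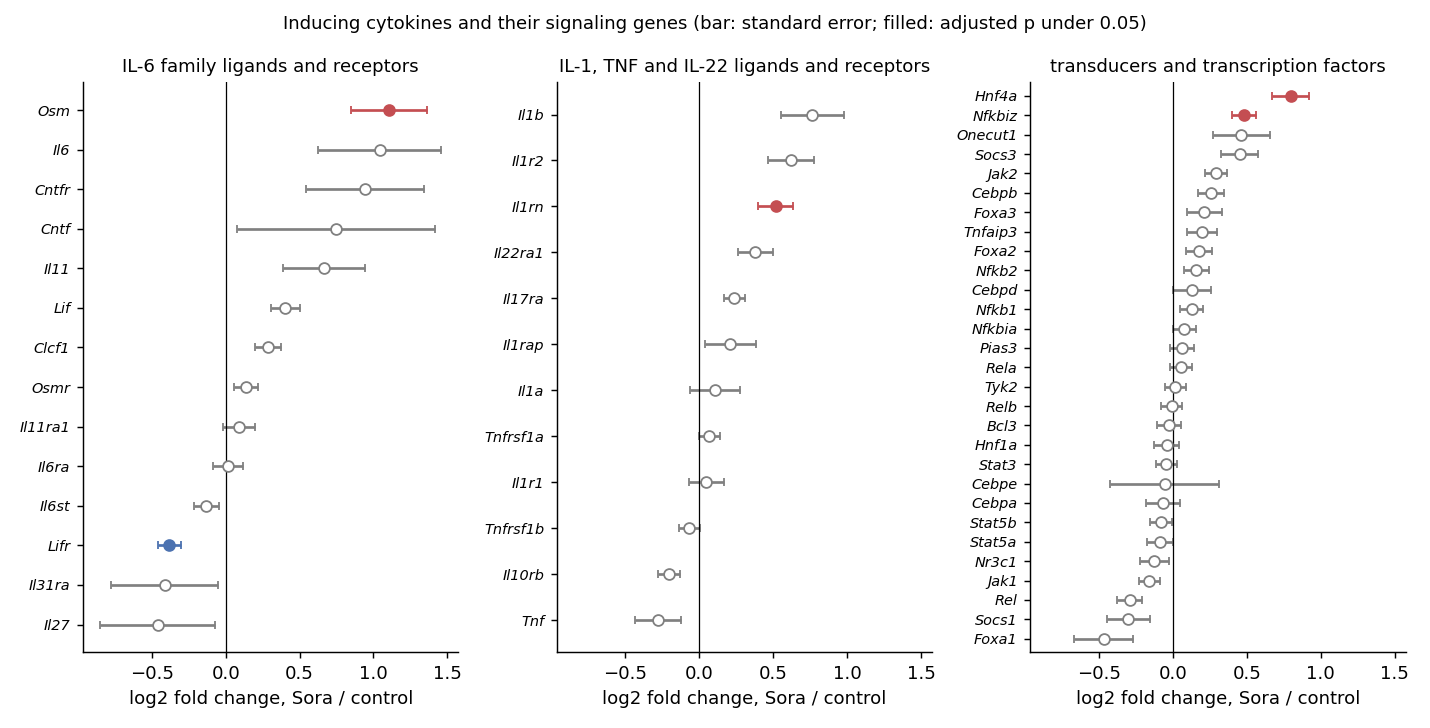
Log2 fold change, Sora-treated over control (x axis), of the inducing cytokines, their receptors, and their signaling genes; bars are standard errors and filled points have an edgeR adjusted p under 0.05. Osm, Il1rn, Hnf4a, and Nfkbiz are called higher and Lifr lower, while Il6, Il1b, Stat3, and Socs3 are not called.

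Other acute-phase genes did not share 1 direction. Of 25 other positive acute-phase genes 16 were tested, 3 were called higher and 3 lower, and the median log2 fold change was 0.062. The 3 called higher were Lrg1, a leucine-rich glycoprotein (0.95, edgeR adjusted p = 0.014), and the metallothioneins Mt2 (0.81, edgeR adjusted p = 0.012) and Mt1 (0.63, edgeR adjusted p = 0.018). The 3 called lower were the complement protein C3 (-0.53, edgeR adjusted p = 0.021), the lipopolysaccharide-binding protein gene Lbp (-0.71, edgeR adjusted p = 0.024), and Cp, which encodes the copper carrier ceruloplasmin (-0.87, edgeR adjusted p = 0.015). C3 and Mt2 were the most abundant of this list, at 349 ± 27.6 and 121 ± 17.9 FPKM in control tumors (SD, n = 3). C3 was at 240 ± 11.4 FPKM and Mt2 at 211 ± 19.1 FPKM in Sora-treated tumors (SD, n = 3).

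Negative acute-phase genes, whose products fall in plasma during inflammation, were likewise divided. Of 12 such genes 8 were tested, 1 was called higher and 2 lower, with a median log2 fold change of 0.021. Ttr, transthyretin, was at 7.08, 5.71, and 8.76 FPKM in the control tumors and at 1.42, 1.89, and 1.51 FPKM in the Sora-treated tumors. Its fall of 2.15 on the log2 scale (standard error 0.21, edgeR adjusted p = 0.0055) was called in all 6 fits with a tumor left out. Alb fell by 0.55 (edgeR adjusted p = 0.041), and Apoa1, the main apolipoprotein of high-density lipoprotein, rose by 1.03 (edgeR adjusted p = 0.047) on the log2 scale. Trf, transferrin, the most abundant after Alb, had a log2 fold change of 0.084 (edgeR adjusted p = 0.74).

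**Figure D5:**
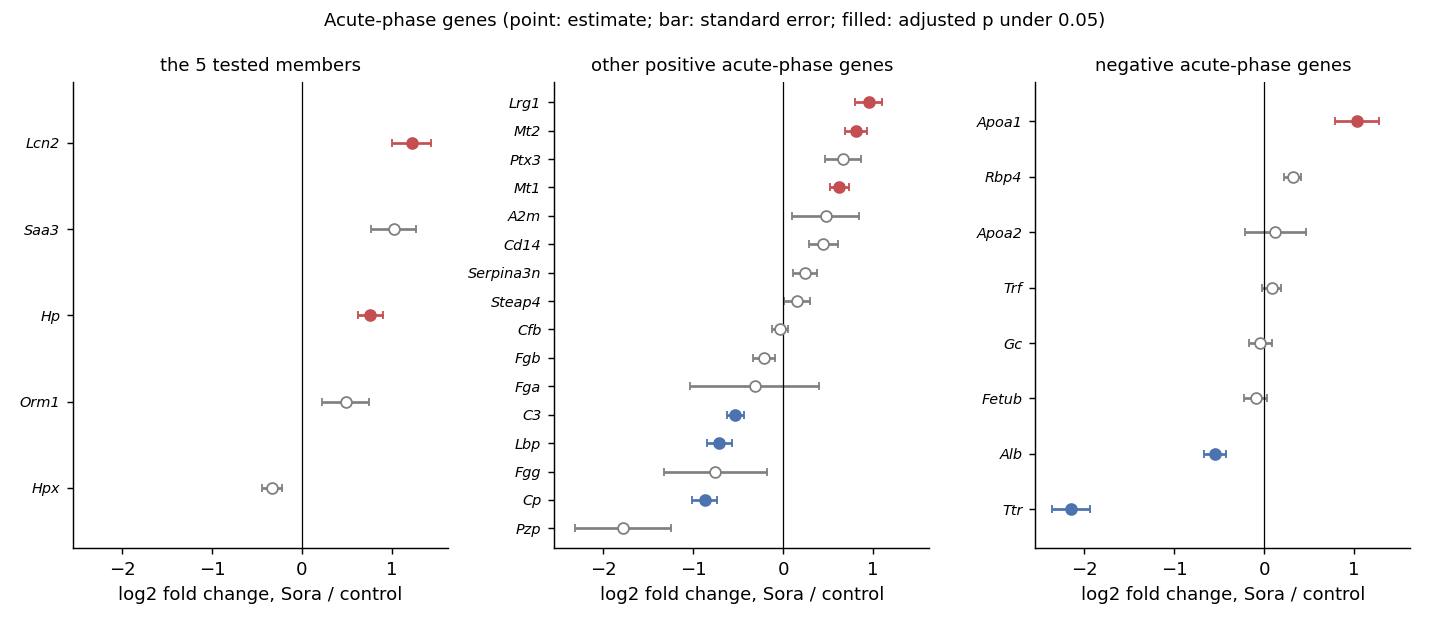
Log2 fold change, Sora-treated over control (x axis), of the 5 tested genes described here (left), other positive acute-phase genes (middle), and negative acute-phase genes (right); bars are standard errors and filled points have an edgeR adjusted p under 0.05. Each panel has genes on both sides of 0, and Ttr, with -2.15, lies farthest from it.

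Receptors and partners of the acute-phase proteins were measured as well. Of 23 genes 22 were tested, and none was called higher and 1 lower, against 1.94% and 1.34% of all genes tested. Their median log2 fold change was -0.12, with 5 values above 0 and 17 below. By TMM-scaled CPM, every Sora-treated tumor was higher for 1 gene and lower for 6, against 10.6% and 11.6% of all genes tested. Slc40a1, the iron exporter ferroportin, fell by 0.46 on the log2 scale (standard error 0.11, edgeR adjusted p = 0.047). The complement genes C1qb and C1qa, whose products bind pentraxins, were the most abundant, with log2 fold changes of -0.34 (edgeR adjusted p = 0.15) and -0.32 (edgeR adjusted p = 0.10). The receptors of the scavenger and lipocalin proteins are named here after their values were seen. Cd163, which takes up haptoglobin with hemoglobin, was at 4.24 ± 0.837 and 3.90 ± 0.502 FPKM (SD, n = 3) in control and Sora-treated tumors, with a log2 fold change of -0.11 (edgeR adjusted p = 0.75). Lrp1, which takes up hemopexin with heme, had a log2 fold change of -0.065 (edgeR adjusted p = 0.76). Hmox1, which breaks heme down, had one of -0.056 (edgeR adjusted p = 0.84). Slc22a17, a lipocalin 2 receptor, was at 0.203 ± 0.0657 and 0.206 ± 0.0920 FPKM (SD, n = 3) in control and Sora-treated tumors.

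Other cells that could make these proteins were followed by their markers. Of 10 macrophage markers, all tested, none was called higher and 1 lower, with a median log2 fold change of -0.17. The call was Mertk, a receptor for dying cells, which fell by 0.45 on the log2 scale (edgeR adjusted p = 0.031), whereas Lyz2 and Cd68, the most abundant, had log2 fold changes of -0.086 (edgeR adjusted p = 0.79) and -0.24 (edgeR adjusted p = 0.16). Their summed level was 1299 to 1390 FPKM in control and 1065 to 1429 FPKM in Sora-treated tumors. None of 9 fibroblast markers was called, and their median was -0.21; Dcn and Col1a1 were the most abundant, with log2 fold changes of 0.026 (edgeR adjusted p = 0.91) and -0.42 (edgeR adjusted p = 0.12). None of 9 keratinocyte and skin markers was called, although all had a positive log2 fold change and their median was 0.42. Krt14 and Krt5 were the most abundant of these, and the summed level was 478, 127, and 149 FPKM in control tumors 1, 3, and 4, and 428, 276, and 288 FPKM in Sora-treated tumors 2, 3, and 4. Of the 14 hepatoma and hepatocyte markers, Apoa1 and Hnf4a were called higher and Alb and Ttr lower, with a median of 0.25. The part of these cells in the differences of the acute-phase genes was not tested.

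The calls in these other lists depended on single tumors. Of the 18 genes called with all 6 tumors, 9 were still called without control tumor 1, 10 without control tumor 3, and 4 without control tumor 4. Without Sora-treated tumors 2, 3, and 4, 3, 17, and 1 of the 18 were still called. All 18 kept their direction in each of these fits. Ttr was the gene still called without Sora-treated tumor 4 (edgeR adjusted p = 0.046), a fit in which edgeR called 4 genes higher and 1 lower among all genes. Apoa1 had a log2 fold change of 0.65 in that fit, against 1.03 with all tumors.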

How the data were processed

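RNA sequencing of 6 Hepa1-6 tumors, 3 of control and 3 of Sora-treated mice, was analyzed. The authors deposited a table of counts, the whole reads per gene, and a table of FPKM, counts scaled to gene length and library total. The count table used here holds 5 of these tumors, and the FPKM table holds all 6. The paper names Bowtie2, GRCm38, and an expectation maximization algorithm for the FPKM, whereas the submitters' processing notes name fastp, HISAT2, HTSeq, and GRCm39. The notes also name R 3.2.0 and DESeq2, and the paper names DESeq2 as well. These accounts were not reconciled here, and the annotation and use of strand are not given in the sources used here. Reads of near-identical or overlapping genes are therefore uncertain. Coordinates and promoters are those of RefSeq on GRCm38.p6, and transcripts those of GENCODE M21, matched by symbol. No expression value rests on them.

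The counts of Sora-treated tumor 4 were recovered from its FPKM, gene lengths taken from the other tumors, and its total of 34120168. All 20951 recovered values (100%) lay within 0.001 of a whole number, and 342 genes of unknown length with 512 reads were left at 0. The same steps returned the known counts of each of the other 5 tumors. Genes that reached 10 counts in 3 or more tumors were tested with edgeR 4.0.16 in R 4.3.3 (TMM, glmQLFit, glmQLFTest, Benjamini-Hochberg adjustment). The script was tested on simulated data. The standard error is the log2 fold change divided by the square root of F.

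The members and the lists were chosen with earlier results of these data known. The text names the members, each list gene with an adjusted p under 0.05, the 2 genes of each list with the highest mean FPKM, and, for the 2 most abundant members, the 3 genes with the most similar profile. Genes named outside this rule are marked, and 1 gene of the lists is not reported here. The lists were other positive and negative acute-phase genes, IL-6 family, IL-1, TNF, and IL-22 genes, signal transducers and transcription factors, receptors and partners, and markers of neutrophils, adipocytes, macrophages, fibroblasts, keratinocytes and skin, hepatoma cells, and red blood cells. Alternatives were DESeq2 1.42.0, other scalings and filters, the replicate number as a block, each tumor left out, and limma 3.58.1 on log2(FPKM + 1) or log2(FPKM + 0.1). DESeq2 on the deposited counts alone was chosen after seeing the data. No sequencing batch is named in the sample labels.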

Additional observations from a re-analysis of the deposited data

How the results depend on the processing

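Against 321 genes higher and 222 lower in Sora-treated tumors, DESeq2 called 619 and 575, edgeR without a filter 570 and 577, and limma on log2(FPKM + 1) 136 and 62, all counted over all genes tested. Limma on log2(FPKM + 0.1) called 21 and 17, and limma on log2(FPKM + 1) of all genes called 0 and 0 (1604 and 1649 at an unadjusted p under 0.05, 3 members among the former). With 1 tumor left out, edgeR called 4 to 574 genes higher and 1 to 571 lower, the lowest without Sora-treated tumor 4 and the highest without Sora-treated tumor 3. Of the members, 2 were called higher with all tumors and 0 to 3 with 1 tumor left out. In each case 1 member was called in both limma fits on filtered genes, and 0 with limma on all genes. No member was called lower in any setting. The direction of each of the 5 tested members was the same in all 17 alternatives, of which Lcn2 was called in 11, Hp in 10, Saa3 in 6, and Orm1 and Hpx in 0. The cause of these differences was not tested.

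Tumors of the 2 groups share the replicate numbers 3 and 4, whose deviations from the group means had correlations of -0.017 and -0.081 across genes. Tumors with unlike numbers had correlations from -0.20 to 0.29, so these values cannot decide whether the numbers pair the tumors. With the replicate number as a block, edgeR called 80 genes higher, 45 lower, and 1 member, Saa3 (log2 fold change 1.09, adjusted p = 0.034), with adjusted p of 0.26 for Lcn2 and 0.081 for Hp. DESeq2 on the deposited counts alone, chosen after seeing the data, leaves out Sora-treated tumor 4 and called 263 of 25274 genes higher. It called 3 members higher, with adjusted p of 0.0065 for Saa3, 0.00021 for Lcn2, and 4.4e-05 for Hp. The log2 fold change of Saa3 in this fit was 0.55, against 1.02 in the main fit. With the same tumor left out, edgeR called 0 members higher. At these depths the 5 members with 78 reads in all could not be compared between the groups.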

Other observations

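The genes whose profile over the 6 tumors was most like that of Saa3 and of Hp were found among 14108 other genes with a mean of at least 1 CPM, by the root-mean-square difference of log2(CPM + 1) centered on its mean. For Saa3, whose own profile had a root-mean-square size of 0.576, they were Flacc1, Sgip1, and Gm39853, with differences of 0.195, 0.206, and 0.216. Gm39853 rose in Sora-treated tumors by 1.42 on the log2 scale (edgeR adjusted p = 0.042), while Flacc1, with 1.49, and Sgip1, with 0.97, did not pass (edgeR adjusted p = 0.051 and 0.078). For Hp, with a profile size of 0.431, they were Ccl21a, Glrp1, and Gipr, with differences of 0.131, 0.139, and 0.150. Glrp1 rose by 0.64 on the log2 scale (edgeR adjusted p = 0.031), while Ccl21a, a lymphoid chemokine, with 0.73, and Gipr, the receptor of a gut hormone, with 0.76, did not pass (edgeR adjusted p = 0.071 and 0.21). The calls of Gm39853 and Glrp1 were each kept in 2 of 6 fits with 1 tumor left out. The profile that gave each likeness holds the difference between the groups, so these values are a description of the 6 tumors.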
